A study of Arabidopsis thaliana with 20 samples.

Results

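The genes described here are AT4G33760 and AT3G56330 of Arabidopsis thaliana, a tRNA charging gene and a tRNA modification gene. They were chosen because earlier results of these data put AT4G33760 among the largest increases and AT3G56330 at the largest decrease between hcf145 and WT arrays, so their differences are given as a description, without a test. They are 2 of the 691 genes that are the sole gene of an array feature. AT4G33760 is paired with feature 2565 and AT3G56330 with feature 3618, and neither gene lies on a feature shared with other genes. The array annotation pairs these features with a locus and gives no function, so the roles below are background.

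The study compared total RNA of plants labelled hcf145, a mutant whose labels describe a defect in assembling photosystem I, with wild-type plants (WT), both of the ecotype Wassilevskija. Each group had 10 arrays, numbered 1 to 10. GEO titles call the mutant hcf145, but its source name field reads gun5, which is another mutant. The titles were followed here. No feature was assigned to HCF145 (AT5G08720) alone. It lay on 1 feature shared with other genes, whose value cannot be assigned to it, so the mutation could not be checked. Tissue, plant age and growth conditions are not given in the labels, nor is the kind of array or whether arrays came from separate plants. Each array held 3439 features, with a summed intensity of 3319 to 3640. An intensity here is the deposited value on a linear scale with an array mean near 1, and the number of arrays limits the precision of every value.

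For 20 of 20 arrays, the array of its group that it resembled most in its deviations was its neighbour in the pairs 1 and 2, 3 and 4, 5 and 6, 7 and 8, and 9 and 10. Adjacent arrays had a consensus correlation of 0.661. Averages of adjacent arrays therefore served as the replicates, 5 per group, in the fit and in the differences reported on the log2 scale, except where an alternative is named. The SEs and p-values thus rest on the spread of such averages alone, which may be technical. Both are from the limma fit, whose variance for a feature is shared by the groups and drawn towards that of other features.

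A transfer RNA has to be loaded with its amino acid before a ribosome can use it, and aminoacyl-tRNA synthetases do this loading. Plants make proteins in the cytosol, in chloroplasts and in mitochondria, and the synthetases of both organelles are encoded in the nucleus and imported. Many bases of a tRNA are also modified after transcription, which steadies its fold and its decoding. AT4G33760 encodes an organellar class II synthetase, annotated as the enzyme that charges tRNA with aspartate. AT3G56330 encodes a member of the TRM1 family, methyltransferases that in yeast make dimethylguanosine in tRNA. Chloroplast translation makes core subunits of photosystem I, whose assembly the hcf145 label concerns. Whether either gene bears on that assembly was not tested.

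AT4G33760, the charging enzyme, was brighter on every hcf145 array than on any WT array. Its intensity on hcf145 arrays 1 to 10 was 0.895, 1.15, 1.55, 1.26, 1.32, 1.12, 1.64, 1.46, 0.896 and 0.760. On WT arrays 1 to 10 it was 0.351, 0.395, 0.529, 0.607, 0.537, 0.564, 0.293, 0.278, 0.392 and 0.479. The dimmest hcf145 array, number 10, stood 0.153 above the brightest WT array, number 4, and no array of either group was at 0. The mean was 1.21 ± 0.297 in hcf145 and 0.443 ± 0.117 in WT (SD, n = 10 each). The same absence of overlap, with hcf145 above WT, was seen for 1.73% of the 3287 features tested (57 features), and nothing is read from it because the gene was chosen on this contrast. In such bulk RNA, a different share of cells that express a gene and a different level per cell cannot be told apart.

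AT3G56330, the methyltransferase gene, was dimmer in hcf145, and its hcf145 arrays ranged from 0 to an intensity that reached into the WT range. Its intensity on hcf145 arrays 1 to 10 was 0.00467, 0, 0.268, 0.161, 0.285, 0.229, 0.451, 0.595, 0.107 and 0.0278. On WT arrays 1 to 10 it was 0.940, 1.03, 0.846, 0.893, 0.766, 0.818, 0.707, 0.905, 0.512 and 0.413. Of the hcf145 arrays, 8 of 10 lay below every WT array. Arrays 7 and 8 of hcf145 lay above WT array 10, and hcf145 array 8 also lay above WT array 9, so that 3 of the 100 comparisons of an hcf145 with a WT array went the other way. The mean was 0.213 ± 0.197 in hcf145 and 0.783 ± 0.193 in WT (SD, n = 10 each).

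**Figure D1:**
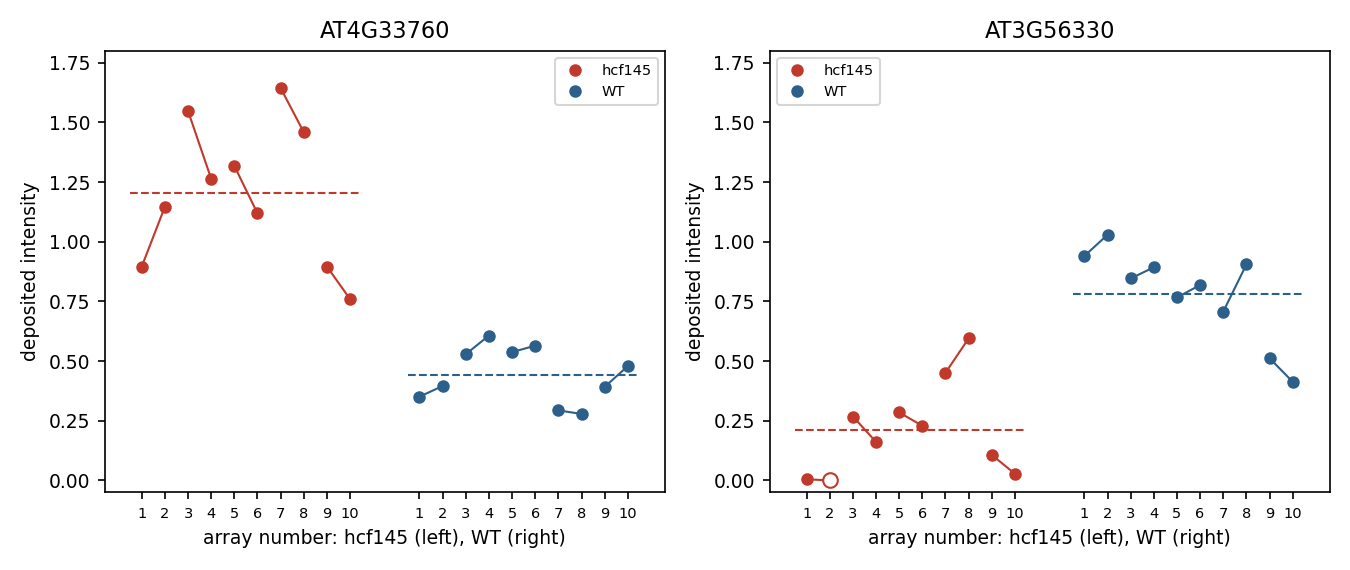
Deposited intensity (y axis, linear) of AT4G33760 (left) and AT3G56330 (right) on each array (x axis, array number), hcf145 in red and WT in blue. Solid lines join adjacent arrays, dashed lines are group means, and the open circle is the exact zero of AT3G56330 on hcf145 array 2. All 10 hcf145 points of AT4G33760 lie above the WT points, while those of AT3G56330 run from 0 to 0.595 and overlap with WT arrays 9 and 10.

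Within a group, the genes differed in evenness. For AT4G33760 the SD was 24.6% of the mean in hcf145 and 26.3% in WT. For AT3G56330 it was 92.4% in hcf145 and 24.6% in WT. On the normalised log2 scale, the SD of the 5 averages of AT3G56330 was 2.63 in hcf145, larger than that of 99.8% of the 3287 features, and 0.24 in WT, larger than that of 15.3%. The corresponding SDs of AT4G33760 were 0.37 in hcf145 and 0.46 in WT, beside medians over all features of 0.51 in hcf145 and 0.42 in WT. Of the hcf145 averages of AT3G56330, that of arrays 1 and 2 was -7.47 and rested on array 1 alone. The others ran from -4.06 to -0.93. Relative to the mean and on the log2 scale, the uneven values were thus those of AT3G56330 on the hcf145 arrays. In intensity units its SD was alike in both groups, 0.197 in hcf145 and 0.193 in WT. Its means were 0.213 and 0.783, so the larger relative spread goes with the lower hcf145 mean and values near 0.

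**Figure D2:**
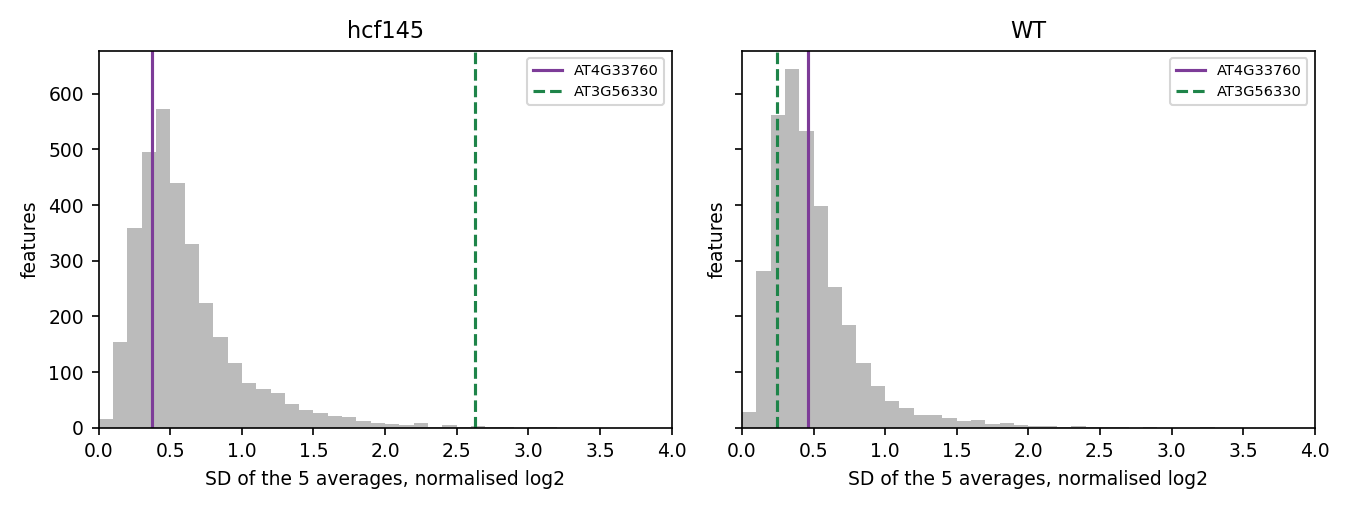
Number of features (y axis) by the SD of their 5 averages on the normalised log2 scale (x axis), hcf145 left and WT right. The vertical lines mark AT4G33760 (solid) and AT3G56330 (dashed), and the dashed line lies at 2.63 in hcf145, in the far tail, and at 0.24 in WT.

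The single zero belonged to AT3G56330 and carries no log value, so the hcf145 average of arrays 1 and 2 rested on array 1 alone. That array had an intensity of 0.00467, where the lowest value above 0 was 0.000937 and 13 features above 0 were dimmer. On hcf145 array 2, 248 features were at 0, and 116 of them (46.8%) were also at 0 on array 1. The other 132 had a median intensity of 0.0888 on array 1, well above that of AT3G56330. Arrays 1 and 2 of hcf145, with 239 and 248 zeros, held more zeros than the other hcf145 arrays (120 to 210) and the WT arrays (125 to 150). The gene was also low on hcf145 arrays 9 and 10, which held 120 and 135 zeros. Whether the number of zeros on an array bears on the low values of AT3G56330 was not tested. At least 1 zero in hcf145 was found for 14.3% of the features tested, and at least 1 in WT for 4.81%.

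On the normalised log2 scale, the mean difference of AT4G33760 between hcf145 and WT was 1.66 ± 0.28 (SE, n = 5 averages per group), or 3.16-fold higher in hcf145. By the size of this difference it stood 7th from the top among the 660 single-gene features and 39th among all 3287. The mean difference of AT3G56330 was -2.75 ± 0.98 (limma SE, n = 5 averages per group), the lowest of the 3287 features. This SE takes the same variance in both groups, although the SDs of the averages were 2.63 in hcf145 and 0.24 in WT. These ranks restate how the genes were chosen. The size of the AT3G56330 difference depended on hcf145 array 1. Without that array the difference was -1.69, and whether the gene kept its place was not computed. Another single-gene feature, AT2G42490, was at -2.14 with all arrays. Its value without hcf145 array 1 is not given, so it cannot be set against that -1.69. Across all features, 7.39% (243 of 3287) had a limma adjusted p under 0.05, 117 higher and 126 lower in hcf145, and the median feature differed by -0.06.

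By array number, the hcf145 averages of AT4G33760 were higher than the WT averages in 5 of 5 pairs of arrays. Those of AT3G56330 were higher in 0 of 5. For AT4G33760 the count follows from the absence of overlap. Nothing is read from either count because the genes were chosen on this contrast. Arrays were matched across the groups by number here, a pairing that the labels do not state. For AT4G33760 the difference was 1.72 on arrays 1 and 2, 1.68 on arrays 3 and 4, 1.52 on arrays 5 and 6, 2.64 on arrays 7 and 8 and 0.75 on arrays 9 and 10. On arrays 7 and 8 the mean intensities were 1.55 in hcf145 and 0.286 in WT, the highest hcf145 and the lowest WT pair of this gene. On arrays 9 and 10 they were 0.828 in hcf145 and 0.435 in WT. On the normalised log2 scale these were the lowest hcf145 average of the gene, at -0.23, and its highest WT average, at -0.98.

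For AT3G56330 the difference was -7.20 on arrays 1 and 2, -1.58 on arrays 3 and 4, -1.35 on arrays 5 and 6, -0.45 on arrays 7 and 8 and -3.16 on arrays 9 and 10. The mean intensities on arrays 1 and 2 were 0.00233 in hcf145, zero included, and 0.984 in WT, the lowest hcf145 and the highest WT pair. On arrays 7 and 8 they were 0.523 in hcf145 and 0.806 in WT. With arrays matched by number, which the labels do not state, arrays 7 and 8 gave the largest difference of AT4G33760 and the smallest of AT3G56330. The adjacent hcf145 arrays 9 and 10 differed by 2.09 on the log2 scale for AT3G56330, against 0.26 between the adjacent WT arrays of those numbers. Over 19 arrays, the deviations of both genes from their group means had a Pearson r of 0.47 and a Spearman rho of 0.30, given as a description because adjacent arrays are not independent.

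**Figure D3:**
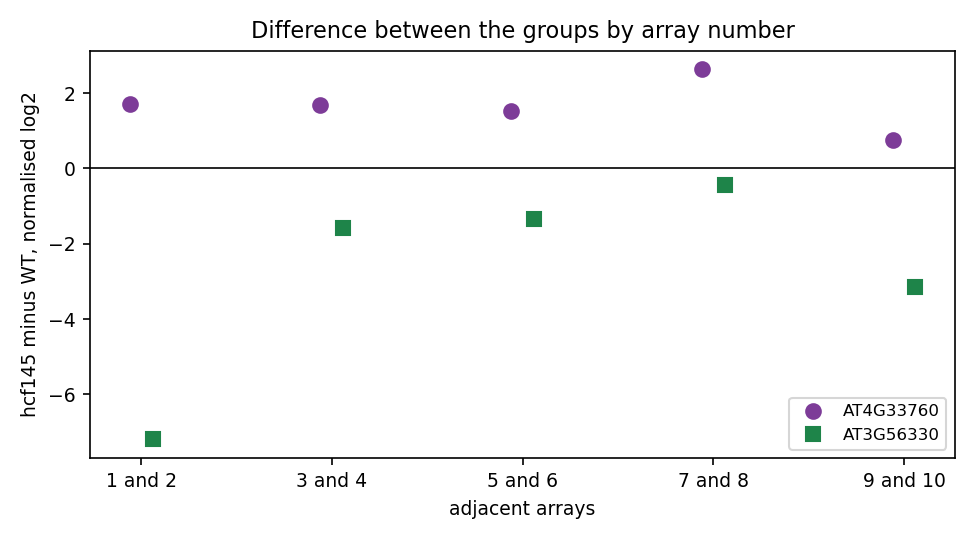
Difference between hcf145 and WT on the normalised log2 scale (y axis) for each pair of adjacent arrays (x axis), with circles for AT4G33760 and squares for AT3G56330. The circles run from 0.75 to 2.64, all above 0, and the squares from -7.20 to -0.45, all below 0. The groups are matched by array number, a pairing that the labels do not state.

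The difference of AT3G56330 moved most with hcf145 array 1. With 1 array left out in turn, the difference of AT4G33760 stayed between 1.63 and 1.70, and with 1 pair of a group left out between 1.49 and 1.79. For AT3G56330 the difference was -1.69 without hcf145 array 1, which also drops the pair of arrays 1 and 2 because of the zero on array 2. Leaving out any other single array gave -2.96 to -2.54. Leaving out a pair of a group gave -3.33 (hcf145 arrays 7 and 8) to -1.69 (hcf145 arrays 1 and 2). The median of the arrays in place of the mean gave -1.56 for AT3G56330, and the log2 ratio of mean intensities with the zero included gave -1.88. Adding 0.105, the 10th percentile of the values above 0, to every value gave -1.50, and setting the zero to the lowest value of its array gave -3.03. The direction was the same in all 43 alternatives run for AT3G56330, and nothing is read from it because the gene was chosen on this contrast. The size of the difference depended on how values near 0 were treated. For AT4G33760 the 44 alternatives gave 1.44 to 1.89, and the lowest came from that added constant.

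**Figure D4:**
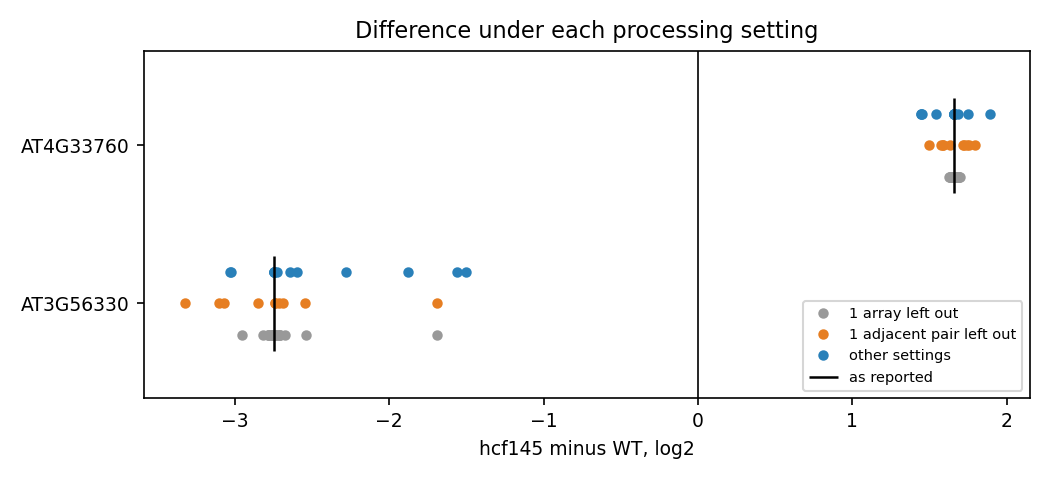
Difference between hcf145 and WT on the log2 scale (x axis) for both genes under each processing alternative, in rows for 1 array left out (grey), 1 adjacent pair left out (orange) and other settings (blue), with the reported value as a black line. AT4G33760 stays between 1.44 and 1.89, while AT3G56330 spreads from -3.33 to -1.50.

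The place of each gene within an array gives the same contrast without a log scale. AT4G33760 ranked at percentiles 74.8 to 89.8 of the features on hcf145 arrays and at percentiles 30.7 to 62.8 on WT arrays. AT3G56330 ranked at percentiles 3.62 to 66.1 on hcf145 arrays and at percentiles 58.1 to 77.5 on WT arrays. In mean intensity, AT4G33760 was brighter than 84.8% of the tested features in hcf145 and 46.3% in WT. AT3G56330 was brighter than 26.2% in hcf145 and 71.0% in WT. AT3G56330 was therefore of more than median brightness in WT, and its 8 lowest values were all on hcf145 arrays.

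Other genes of tRNA metabolism were scarcely covered by features with a single gene. Of 46 further genes listed as aminoacyl-tRNA synthetases, 0 were the sole gene of a tested feature. The same held for the 17 organellar translation factors listed. Of 41 further genes of tRNA modification and processing, 1 was: AT1G22660, a tRNA nucleotidyltransferase, the enzyme class that adds the terminal CCA to which amino acids are attached. It did not pass the test (difference -0.81 ± 0.70 SE, n = 5 averages per group, limma adjusted p = 0.494, unadjusted p = 0.271), so that 0 of 1 was called, beside the 7.39% of all features. Of the listed genes, 2 synthetases, 8 modification genes and 3 translation factors lay only on features with several genes and are not reported.

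AT1G22660 was dim in both groups. Its intensity had a lowest value of 0, a median of 0.0659 and a highest of 0.318 over the hcf145 arrays, against 0.134, 0.200 and 0.310 over the WT arrays. It was at 0 on hcf145 arrays 1, 6 and 10 and on none of the WT arrays, and the zeros were left out of its difference. The groups overlapped, and hcf145 array 9 was the brightest of all 20. With the zeros at the lowest value of each array the difference was -3.22 (limma adjusted p = 0.0958). Leaving out 1 hcf145 array moved it to -0.30 (array 4), -0.36 (array 5), -1.32 (array 3) or -1.26 (array 9), and it did not pass the test in any of these fits.

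The genes most like AT4G33760 across arrays were found by the Pearson correlation of normalised log2 values with 633 other single-gene features. Over 20 arrays, differences between the groups included, these were AT4G24750 (r = 0.918, rho = 0.829), AT2G26110 (r = 0.913, rho = 0.805) and AT3G52070 (r = 0.909, rho = 0.800). All 3 were higher in hcf145, by 1.32, 1.09 and 1.06 on the log2 scale, a direction that picking over arrays of both groups favours. Over deviations from the group means they were AT5G04600, an RNA-recognition-motif protein (r = 0.706), AT5G58330, the chloroplast NADP-dependent malate dehydrogenase (r = 0.695), and AT3G32940 (r = 0.669). Without WT array 8 and hcf145 array 10, the farthest from the median, these r were 0.720, 0.582 and 0.484. Over all values, leaving out WT arrays 7 and 8 gave 0.898, 0.905 and 0.877. The lists for the 2 measures held different genes. These values describe 20 arrays in which adjacent arrays share their deviations.

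For AT3G56330, over the 19 arrays with a value, AT2G42490 (r = 0.814), AT4G17070 (r = 0.778) and AT5G62550 (r = 0.731) came first. Without hcf145 arrays 1 and 10, the farthest from the median, their r was 0.492, 0.434 and 0.590. Their log2 differences between hcf145 and WT were -2.14, -0.47 and -1.04, a direction that picking over arrays of both groups favours. Over deviations from the group means, FATB (AT1G08510), an acyl-ACP thioesterase of plastid fatty acid synthesis, came first (r = 0.780), and its r was 0.275 without those arrays. CCS (AT1G12520), the copper chaperone of superoxide dismutase, had r = 0.775 and 0.654 without them, and AT4G17070 had 0.772 and 0.575. The log2 difference between hcf145 and WT was -0.33 for FATB and 0.82 for CCS, so CCS was higher in hcf145.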

How the data were processed

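The authors deposited linear intensity values in a single table, a unit judged from the values themselves. How they quantified and scaled them is not stated in the sources used here. Gene names came from the platform annotation and, for names only, from RefSeq genes (assembly TAIR10.1).

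Exact zeros were treated as missing. Log2 values were quantile normalised, and a feature needed at least 5 values in each group, which removed 152. Adjacent arrays were averaged and compared with limma (version 3.58.1, R 4.3.3; two-sided, group as the only term, Benjamini-Hochberg over 3287 features, threshold 0.05).

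The genes named are AT4G33760, AT3G56330, every listed gene that is the sole gene of a tested feature, and the 3 genes most correlated with each of the 2 by either measure. The genes, lists and tests were chosen with earlier results of these data known. Synthetases, modification genes and translation factors were listed by locus, with genes added whose name matched a keyword. This also put AT1G07910, a tRNA ligase that splices tRNA, among the synthetases; it is on no annotated feature. Alternatives covered the replicate unit, the normalisation, zeros, filters, the variance model and arrays left out.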

Additional observations from a re-analysis of the deposited data

How the results depend on the processing

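The differences of AT4G33760 and AT3G56330 kept their direction and moved by less than 1 SD of the averages (0.418 and 1.86 on the log2 scale) in all 44 and 43 alternatives run. The genes were chosen on this contrast, so nothing is read from the kept direction. The SD of AT3G56330 is wide because of its hcf145 arrays, so staying within 1 SD says little about the size of its difference. The number of features called, 243 in the limma fit of averages, was 956 with 20 arrays counted separately, 425 with adjacent arrays as a random block and 500 with the pair number as a replicate block. It was 196 to 247 with 1 array left out. It fell without WT arrays 7 and 8 (47), 5 and 6 (88), 1 and 2 (100) and 3 and 4 (116). It also fell without hcf145 arrays 5 and 6 (104), 7 and 8 (111) and 3 and 4 (141). The other pairs of a group gave 240 to 247 at the same loss of replicates. Without arrays 9 and 10 of both groups it was 308. Without normalisation, the median over all features was -0.33 (log2), where it was -0.06 with it, AT4G33760 was at 1.45 and AT3G56330 at -3.02. AT1G22660 was past the threshold in 0 of its 40 alternatives (limma; -3.22 to -0.30). Array numbers were not taken as paired, because the labels do not say so and not every number reached a correlation of 0.1 across the groups: same-numbered averages correlated by 0.0613 to 0.408, the lowest on arrays 3 and 4. As a hint towards pairing, 8 of 10 averages correlated best with their own number. With the pair number as a replicate block, the differences of the 3 genes were the same by construction (1.66, -2.75 and -0.81). The fit restricted to features with no missing value could not be run for AT3G56330 and AT1G22660, and AT1G22660 is among the dimmest features left out by the filter. No alternative could be run for the synthetases and translation factors, which had no further gene tested. Dim values and zeros limit AT3G56330 and AT1G22660 in hcf145, and AT1G22660 was also dim in WT.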
